A study of Mus musculus with 51 samples.

Results

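Granulocyte-macrophage progenitors (GMP) and common myeloid progenitors (CMP) of wild-type mouse bone marrow were compared on 14 of the 51 microarrays of the series, which hold 10 of its 43 replicates. The columns titled as wild-type GMP (5 replicates on 5 arrays) were set against the columns titled as wild-type CMP (5 replicates on 9 arrays, since 4 of them had been run on 2 arrays, which were averaged). Both populations had been sorted by flow cytometry out of whole bone marrow and put straight into extraction buffer. The labels name no transgene and no treatment for either group. The remaining arrays hold wild-type haematopoietic stem cells (HSC) and common lymphoid progenitors (CLP), and the same populations from Mll-AF9 mice, which carry a fusion of Mll with Mllt3 (Af9) found in human acute leukaemia. No label names the antibodies of the sort, or the strain, age and sex of the animals. Nor does any say whether a replicate was 1 mouse or a pool, so the tests weigh differences against a spread that may in part be technical.

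CMP are classed as progenitors of all myeloid blood cells, from red cells and megakaryocytes to granulocytes and monocytes, and GMP as their offspring that has given up the red cell and platelet fates. In textbook accounts Gata1 and Klf1 drive the red cell programme, while Pu.1 (Spi1), C/EBPα (Cebpa), Gfi1 and Irf8 drive that of granulocytes and monocytes. CMP gated by surface markers are known to be a mixture in which many cells already lean to one fate, so a level in CMP is an average over such cells. In these bulk samples, fewer cells of a type and less RNA per cell cannot be told apart.

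The signal distributions of the 2 groups differed slightly, as the plot of array checks shows. The median level of all 18193 genes was 5.10 ± 0.03 log2 RMA units in GMP and 4.93 ± 0.05 in CMP (SD, n = 5 each; exact two-sided permutation p = 0.0079, the smallest that 5 against 5 allows; 0.0109 adjusted over 11 array measures). The median of 114 genes known not to be expressed in blood cells was 3.31 in GMP and 3.07 in CMP, while the 95th percentile of all probe sets was 9.08 in GMP and 9.09 in CMP (exact p = 0.0079 and 0.4127). Dim genes were thus read higher in GMP, and the deposited CMP values carry 9 decimals against 2 in the GMP values. Whether the arrays were normalised apart was not tested. Log2 values differed between GMP and CMP replicates with an SD over genes of 0.76 to 0.99 (25 pairs), against 0.28 to 0.66 among GMP replicates and 0.24 to 0.33 among CMP replicates. Between the 2 runs of 1 CMP replicate this SD was 0.29 to 0.37 (4 pairs). CMP replicates 1 to 4 are means of 2 arrays and GMP replicates single arrays, so the spreads of the groups are not directly comparable. GMP replicate 1 stood apart: it lay more than 1 log2 unit below the other GMP replicates on 585 genes and above them on 203, and its 3′ minus 5′ control difference was 4.70, against 2.59 to 4.14 in GMP replicates 2 to 5 and 2.88 to 3.43 in CMP. In both groups the Y-linked genes were high in replicates 1 to 3 and Xist in replicates 4 and 5.

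**Figure D1:**
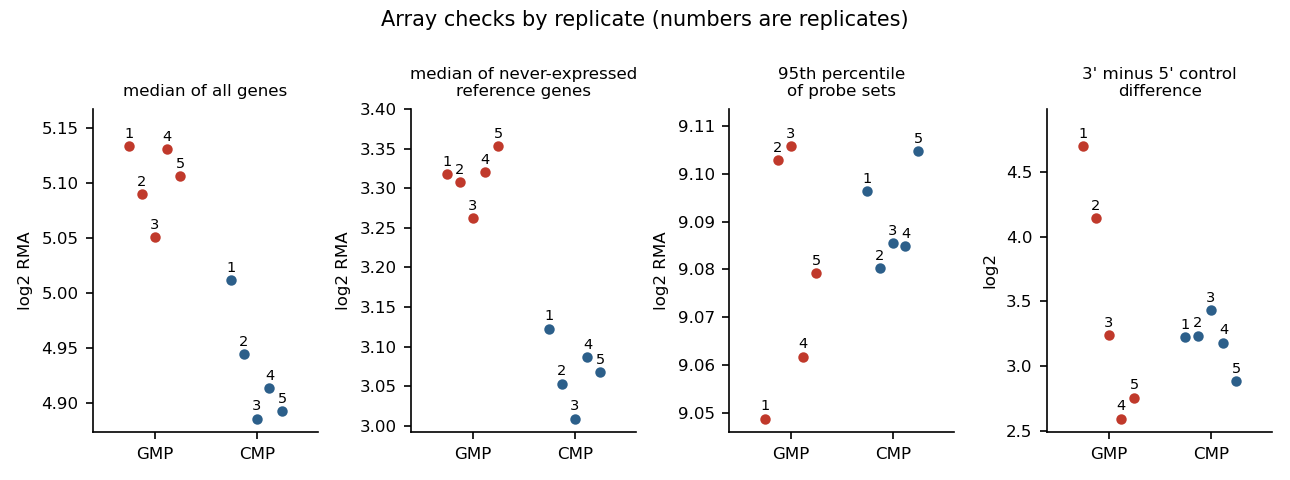
Each panel shows 1 measure (log2 RMA units, or a log2 difference for the control probe sets) with 1 numbered dot per replicate, GMP left of CMP. All GMP replicates lie above all CMP replicates for the median of all genes (5.10 against 4.93 on average) and for genes not expressed in blood, but not for the 95th percentile.

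The 2 populations differed across a large share of the genome. Of 18193 genes, each read from 1 probe set, 5423 were higher in GMP (29.8%) and 2960 lower (16.3%) at an adjusted p below 0.05 (limma). Over 2-fold, 1071 genes were higher (5.89%) and 1112 lower (6.11%). The split of small differences followed the scaling: 64.69% of the calls were higher as deposited, against 42.33% after each array was centred on its median (3156 higher, or 17.3% of genes, and 4300 lower, or 23.6%). Over 2-fold, 49.06% of the calls were higher as deposited and 35.01% after centring (4.4% of genes higher and 8.17% lower). Of the 114 genes not expressed in blood, 48 were called higher and 1 lower, but 2 passed 2-fold. Counts over 2-fold are therefore given beside all list counts as deposited. Over all genes the median difference, GMP minus CMP, was 0.13 as deposited and -0.04 after centring. List medians are to be read against this median, and list counts against the shares of all genes called in each direction.

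Genes that mark each population in the literature went with the labels. All 9 measured GMP markers (Mpo, Elane, Prtn3, Ctsg, Csf1r, Csf3r, Fcgr3, Ms4a3 and Irf8) were higher in GMP, by 1.85 to 5.45 log2 units. All 9 measured genes held to be higher in CMP (Gata1, Gata2, Klf1, Epor, Itga2b, Pf4, Gfi1b, Car1 and Zfpm1) were lower in GMP, by 1.14 to 7.12 log2 units. The labels do not say which proteins the sort used, and a gene whose protein defined the gate would differ by choice. Fcgr3, a low-affinity IgG receptor that is part of the usual gate, stood at 9.46, 9.58, 9.001, 9.06 and 9.16 in GMP replicates 1 to 5, against 4.41, 4.82, 4.92, 4.39 and 4.96 in CMP replicates 1 to 5. The groups were far apart, with a difference of 4.55 ± 0.17 (SE; adjusted p = 6.51e-11). Cd34, the other antigen of the usual gate and a sialomucin of early blood cells, was 1.62 higher in GMP. Kit, the stem cell factor receptor, also in common use as a gate antigen, was at 6.33, 8.38, 8.14, 8.17 and 8.18 in GMP replicates 1 to 5, against 8.84, 9.08, 9.34, 9.15 and 8.85 in CMP replicates 1 to 5. All GMP replicates were below all CMP replicates, GMP replicate 1 far below the other 4, and the difference was -1.21 ± 0.31 (adjusted p = 0.00525).

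**Figure D2:**
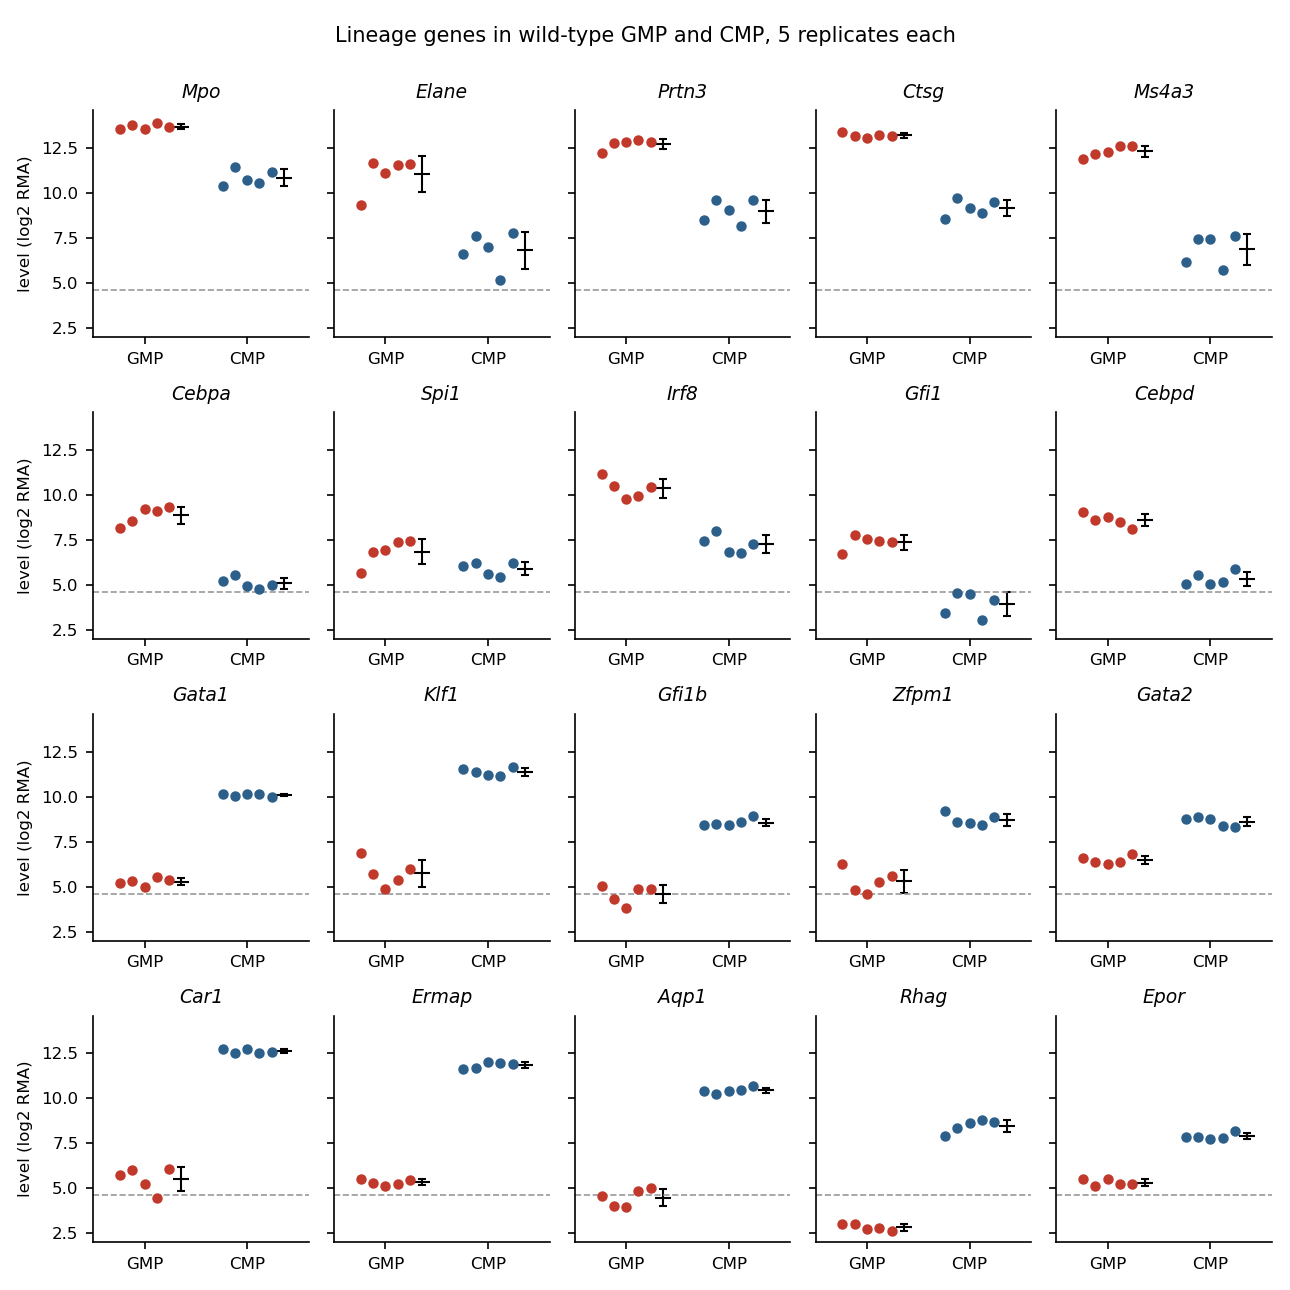
Levels of 20 lineage genes (log2 RMA units) with 1 dot per replicate, GMP left of CMP in each panel. Bars show the mean ± SD of 5 replicates and the dashed line is the background level of 4.62, the 95th percentile of genes not expressed in blood. The 2 groups overlap for Spi1 alone, the granulocyte and monocyte genes of the upper rows lie higher in GMP and the red cell genes of the lower rows lie lower.

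Regulators of the granulocyte and monocyte fates were divided. Of 25 measured members of this list, 12 were higher and 6 lower, 8 and 4 of them over 2-fold, and the median difference was 0.36 (9 and 7 after centring on the array median, with a median of 0.19, and 8 and 8 after centring on the genes not expressed in blood). Of all genes 29.8% were higher and 16.3% lower, 5.89% and 6.11% over 2-fold. Cebpa, which encodes the C/EBPα factor needed to form GMP, stood at 8.18, 8.57, 9.20, 9.10 and 9.31 in GMP replicates 1 to 5, against 5.22, 5.57, 4.92, 4.77 and 4.99 in CMP replicates 1 to 5. The difference was 3.78 ± 0.22 (adjusted p = 5.06e-09), or 13.7-fold, with no overlap. Irf8, which favours the monocyte and dendritic fates over the neutrophil fate, had 11.17, 10.47, 9.77, 9.92 and 10.45 in GMP replicates 1 to 5, against 7.44, 7.99, 6.80, 6.76 and 7.26 in CMP replicates 1 to 5. It was 8.61-fold higher in GMP, and the lowest GMP replicate lay above the highest CMP replicate.

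Gfi1, a repressor that favours neutrophils, was at 6.70, 7.78, 7.52, 7.43 and 7.36 in GMP replicates 1 to 5, against 3.42, 4.56, 4.48, 3.06 and 4.14 in CMP replicates 1 to 5. Its CMP mean was below the background of 4.62 log2 units, so it was at least 6.68-fold higher in GMP (adjusted p = 1.69e-07). Cebpd and Nfil3, both leucine zipper factors, were also higher in GMP, Cebpd by 3.28 on the log2 scale and Nfil3, with a CMP mean below background, at least 4.2-fold. Spi1, which encodes Pu.1, moved less, with 5.68, 6.81, 6.92, 7.37 and 7.44 in GMP replicates 1 to 5, against 6.04, 6.24, 5.58, 5.44 and 6.23 in CMP replicates 1 to 5. GMP replicate 1 lay within the CMP range, the difference was 0.94 ± 0.29 (adjusted p = 0.015), and Spi1 lost its call in 2 of 28 alternatives. Among the members lower in GMP were the zinc-finger factors Egr1 and Egr2, which are also immediate-early genes. Egr1 differed by -2.56, and Egr2, with a GMP mean below background, was at least 5.32-fold lower.

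The list of primary granule genes, named for the enzyme stores that promyelocytes make, had the highest median. Besides granule enzymes it holds genes of other products, such as the membrane proteins Ms4a3 and Igsf6 and the glutathione transferase Mgst1. Of 23 measured members, 22 were higher in GMP, 21 of them over 2-fold, none was lower, and the median difference was 3.16. In 20 of the 23, the 5 GMP replicates lay above all 5 CMP replicates (20.7% of all genes). Ms4a3, a membrane protein of GMP and early granulocytes, stood at 11.90, 12.18, 12.30, 12.63 and 12.62 in GMP replicates 1 to 5, against 6.16, 7.44, 7.46, 5.74 and 7.60 in CMP replicates 1 to 5. This was the widest difference of the list, 5.45 ± 0.32 (adjusted p = 5.46e-09), or 43.6-fold. Mpo, the myeloperoxidase that makes hypochlorous acid, had 13.57, 13.79, 13.58, 13.87 and 13.69 in GMP replicates 1 to 5, against 10.38, 11.46, 10.72, 10.57 and 11.18 in CMP replicates 1 to 5. It was 7.14-fold higher in GMP, although its CMP level was well above background in all 5 replicates.

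Elane, the neutrophil elastase, was at 9.31, 11.65, 11.13, 11.58 and 11.59 in GMP replicates 1 to 5, against 6.60, 7.60, 7.01, 5.17 and 7.76 in CMP replicates 1 to 5. GMP replicate 1 was low, yet above every CMP replicate, and the difference was 4.22 ± 0.49 (adjusted p = 6.69e-06). The serine proteases Ctsg and Prtn3 were 16.3-fold and 13.4-fold higher in GMP, and Hp, which encodes the haemoglobin scavenger haptoglobin, 25.3-fold. Igsf6, an immunoglobulin-like membrane protein, and Mgst1, a glutathione transferase, were near or below background in CMP and at least 17.9-fold and 23.2-fold higher in GMP. Rnase2b was the 1 member not called (difference 0.13). The mean level of the list was 9.77 to 10.13 in GMP, and 7.44 and 7.29 in CMP replicates 2 and 5 against 6.37 to 6.84 in the other CMP replicates.

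The windows from 250 bases before to 50 after the gene start are shown for Ms4a3 and Igsf6, members of this list with large differences and a single annotated start, as given by RefSeq for GRCm38.p6. They read 5′ to 3′ along the gene's strand. Capitals mark matches, on either strand, to core letters bound by Pu.1 (GAGGAA), C/EBP (TTGCNNAA), GATA (GATAA) and KLF (CCNCNCCC) factors, and runs of capitals can hold adjoining or overlapping matches.
Ms4a3, chr19:11640802-11641101, minus strand: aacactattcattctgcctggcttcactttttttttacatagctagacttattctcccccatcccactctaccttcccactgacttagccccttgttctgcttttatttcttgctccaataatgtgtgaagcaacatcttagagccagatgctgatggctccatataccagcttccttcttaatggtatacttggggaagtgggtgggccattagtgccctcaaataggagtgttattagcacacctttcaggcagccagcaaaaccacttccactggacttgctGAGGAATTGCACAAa
Igsf6, chr7:121074481-121074780, minus strand: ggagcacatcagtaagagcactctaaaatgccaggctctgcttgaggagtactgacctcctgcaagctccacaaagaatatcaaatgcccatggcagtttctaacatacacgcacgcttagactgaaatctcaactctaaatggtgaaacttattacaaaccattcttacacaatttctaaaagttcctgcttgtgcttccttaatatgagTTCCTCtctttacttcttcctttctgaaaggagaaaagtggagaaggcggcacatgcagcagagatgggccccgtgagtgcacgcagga
Both hold a Pu.1 match, and in Ms4a3 it is followed directly by a C/EBP match. Over the 18 called members with an entry (21 windows), GAGGAA was found in 47.6% and TTGCNNAA in 28.6% of windows, against 27.1% and 9.4% of all 18109 windows of 14452 genes. Over all genes higher in GMP by more than 2-fold (1144 windows), the shares were 31.3% and 10.8%, and over those lower (1206 windows) 24.1% and 8.4%. These are matches of letters, not sites shown to be bound, and the shares were not tested.

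Genes of monocytes and macrophages were higher in GMP as a group. Of 26 measured members, 22 were higher, 19 over 2-fold, none was lower, and the median difference was 2.05. The same 22 to 0 count was seen after centring on the array median and after centring on the genes not expressed in blood. F13a1, the coagulation factor XIII subunit that monocytes make, stood at 10.61, 10.31, 10.40, 10.21 and 10.44 in GMP replicates 1 to 5, against 5.55, 6.39, 5.42, 6.002 and 5.97 in CMP replicates 1 to 5. The groups were more than 3 log2 units apart, and the difference was 4.53 ± 0.18 (adjusted p = 1.13e-10). Ctsh, a lysosomal cysteine protease, was at least 18.5-fold higher in GMP, and the adaptor Tyrobp, which signals for activating receptors, 14.4-fold. Slpi, a protease inhibitor, was 11.1-fold higher and Mpeg1, a pore-forming protein of phagocytes, 7.86-fold.

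Innate sensing genes were higher in 15 and lower in 2 of 21 members, 12 and none over 2-fold, with a median of 1.22. Clec7a, the β-glucan receptor Dectin-1, led with a difference of 3.28 ± 0.28, and Casp1, the inflammasome protease, was 2.75 higher. The lectin receptors Clec5a and Clec4e and Tlr2, a sensor of bacterial lipoproteins, had CMP means below background and were at least 2.45-fold, 5.44-fold and 3.42-fold higher in GMP. All 6 measured subunits of the NADPH oxidase, the enzyme of the respiratory burst, were higher, 4 of them over 2-fold, and after centring 4 of 6 kept the call. Ncf4, a cytosolic subunit, had the largest difference at 3.16 ± 0.25, and Cybb, the catalytic subunit, was 2.02 ± 0.33 higher. Cyba, its membrane partner, differed by 0.58 ± 0.16 and lost its call in 5 of 28 alternatives.

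Of 27 cytokine receptors, 15 were higher in GMP and 6 lower, 11 and 3 over 2-fold, with a median of 0.50. The shares of all genes were 29.8% higher and 16.3% lower, 5.89% and 6.11% over 2-fold. Csf1r, the receptor for the monocyte factor CSF1, stood at 12.78, 11.18, 10.91, 11.69 and 11.53 in GMP replicates 1 to 5, against 7.75, 8.27, 7.55, 7.53 and 7.82 in CMP replicates 1 to 5. All GMP replicates were at least 2 log2 units above all CMP replicates, replicate 1 highest, and the difference was 3.84 ± 0.27 (adjusted p = 4.76e-08; 3.30 and 1.00 on its other probe sets). Csf2rb, the shared signalling chain for GM-CSF, IL-3 and IL-5, was 18.7-fold higher. Csf2ra, the GM-CSF binding chain, was 1.55 higher, Csf3r, the G-CSF receptor, 1.85, and the IL-6 receptor chain Il6ra 1.45. Il6st, the chain it signals through, had a CMP mean below background and was at least 6.07-fold higher.

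Epor, the erythropoietin receptor, ran the other way, at 5.52, 5.16, 5.51, 5.24 and 5.22 in GMP replicates 1 to 5, against 7.85, 7.87, 7.76, 7.81 and 8.19 in CMP replicates 1 to 5. The 2 ranges were more than 2 log2 units apart and the difference was -2.57 ± 0.14 (adjusted p = 2.00e-09). Il1r1 and Ifnar1, receptors for interleukin-1 and type I interferon, were lower in GMP by smaller amounts (-0.75 and -0.82). Flt3, the receptor of early lymphoid and dendritic precursors, differed by 0.50 ± 0.22 and Il7r by -0.40 ± 0.19, and neither passed the test (adjusted p = 0.0757 and 0.0919).

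Regulators of red cells were lower in GMP. Of 22 erythroid transcription factors and cofactors, 13 were lower, 12 of them over 2-fold, and 4 were higher, 2 over 2-fold, with a median difference of -1.47. Klf1, an erythroid Krüppel-like activator of globin and membrane genes, stood at 6.87, 5.72, 4.84, 5.36 and 5.95 in GMP replicates 1 to 5, against 11.52, 11.37, 11.19, 11.15 and 11.66 in CMP replicates 1 to 5. GMP replicate 1 was the highest of its group, still more than 4 log2 units below every CMP replicate, and Klf1 was 49.5-fold lower in GMP (-5.63 ± 0.28, adjusted p = 1.05e-09). Gata1, the zinc-finger factor at the head of the red cell and platelet programmes, had 5.22, 5.32, 4.99, 5.55 and 5.36 in GMP replicates 1 to 5, against 10.14, 10.02, 10.12, 10.13 and 9.997 in CMP replicates 1 to 5. Within each group its levels were close together, and the difference was -4.80 ± 0.13 (adjusted p = 5.63e-12), or 27.8-fold.

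The partners of Gata1 were lower too. Zfpm1, its cofactor Fog1, was 10.6-fold lower in GMP and Gfi1b, a repressor related to Gfi1, at least 13.5-fold. Tal1 was 4.23-fold, Ldb1 4.47-fold and Cbfa2t3 3.14-fold lower, while Lmo2, the bridging protein of the same complex, differed by 0.10 ± 0.11 and was not called (adjusted p = 0.49). Nfia, which favours the erythroid over the granulocyte fate, was at least 16.2-fold lower. The Tal1 relative Lyl1 went the other way, with 9.45, 9.74, 9.41, 9.55 and 9.67 in GMP replicates 1 to 5, against 8.11, 8.16, 7.73, 7.78 and 8.31 in CMP replicates 1 to 5. No GMP replicate overlapped a CMP replicate, and Lyl1 was 1.54 ± 0.14 higher in GMP. Gata2, which acts before Gata1 in stem cells, mast cells and early progenitors, was 4.37-fold lower.

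The windows of Klf1 and Gata1 and of 3 red cell membrane genes described next are shown as those with the largest differences on their lists that have an entry and 1 annotated start, in the same build and with the same 4 sets of letters in capitals.
Klf1, chr8:84901732-84902031, plus strand: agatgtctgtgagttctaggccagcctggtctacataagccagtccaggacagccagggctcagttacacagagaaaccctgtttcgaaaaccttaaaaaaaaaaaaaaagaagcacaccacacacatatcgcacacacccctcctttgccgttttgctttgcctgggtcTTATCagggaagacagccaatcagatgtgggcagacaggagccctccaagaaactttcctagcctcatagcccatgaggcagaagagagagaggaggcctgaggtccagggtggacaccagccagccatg
Gata1, chrX:7967861-7968160, minus strand: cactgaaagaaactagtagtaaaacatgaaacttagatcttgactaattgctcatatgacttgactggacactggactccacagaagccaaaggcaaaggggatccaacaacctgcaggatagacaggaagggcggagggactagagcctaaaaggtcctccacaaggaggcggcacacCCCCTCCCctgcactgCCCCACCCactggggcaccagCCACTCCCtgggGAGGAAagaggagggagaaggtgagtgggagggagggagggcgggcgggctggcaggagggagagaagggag
Ermap, chr4:119189946-119190245, minus strand: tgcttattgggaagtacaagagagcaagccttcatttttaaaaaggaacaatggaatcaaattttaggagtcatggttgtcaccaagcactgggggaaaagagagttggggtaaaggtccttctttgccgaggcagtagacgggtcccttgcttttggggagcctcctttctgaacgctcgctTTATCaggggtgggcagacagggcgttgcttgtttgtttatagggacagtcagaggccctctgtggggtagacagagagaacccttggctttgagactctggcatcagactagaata
Aqp1, chr6:55336049-55336348, plus strand: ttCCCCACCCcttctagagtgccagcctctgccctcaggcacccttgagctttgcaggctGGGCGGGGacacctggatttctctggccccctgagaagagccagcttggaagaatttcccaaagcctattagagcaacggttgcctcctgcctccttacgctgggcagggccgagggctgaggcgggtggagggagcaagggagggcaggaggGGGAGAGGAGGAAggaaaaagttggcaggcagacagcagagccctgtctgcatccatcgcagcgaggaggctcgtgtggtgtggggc
Rhag, chr17:40810899-40811198, plus strand: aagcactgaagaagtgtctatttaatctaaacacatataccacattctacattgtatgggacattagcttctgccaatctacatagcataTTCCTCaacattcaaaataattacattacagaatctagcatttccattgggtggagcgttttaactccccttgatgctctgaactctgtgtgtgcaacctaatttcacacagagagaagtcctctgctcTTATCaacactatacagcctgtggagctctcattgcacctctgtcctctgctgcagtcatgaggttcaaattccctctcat
Klf1, Ermap and Rhag each hold 1 GATA match, read on the opposite strand as TTATC, and Aqp1 and Gata1 hold 3 KLF matches each and no GATA match. Gata1, Aqp1 and Rhag also hold 1 Pu.1 match each, and in Aqp1 it overlaps a KLF match. Over the 17 called red cell membrane genes with an entry (17 windows), GATAA was found in 58.8%, against 19.3% of all windows, 17.1% of windows of genes over 2-fold higher in GMP and 18.7% of those lower. In the 22 windows of 15 called erythroid factors the share was 27.3%, and in the 24 windows of 15 called haem and iron genes 20.8%. CCNCNCCC was found in 62.7% of all windows, and these shares were not tested.

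Genes of the red cell surface and its skeleton held the largest differences of the comparison. Of 30 measured members, globins included, 18 were lower in GMP, 15 over 2-fold, and 4 higher, 1 over 2-fold, with a median of -1.07. Car1, carbonic anhydrase 1 of red cells, stood at 5.74, 6.03, 5.25, 4.47 and 6.07 in GMP replicates 1 to 5, against 12.73, 12.52, 12.76, 12.55 and 12.57 in CMP replicates 1 to 5. No other called gene had so large a difference in either direction, -7.12 ± 0.25 (adjusted p = 3.53e-11), or 139-fold. Ermap, a red cell membrane protein that carries the Scianna blood group in humans, had 5.53, 5.33, 5.16, 5.26 and 5.47 in GMP replicates 1 to 5, against 11.66, 11.72, 12.03, 11.95 and 11.91 in CMP replicates 1 to 5. It was 90.6-fold lower in GMP, and within each group the replicates lay close together.

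Aqp1, a water channel, and Rhag, the ammonium channel of the Rh complex, had GMP means below background and were at least 51.8-fold and 14.5-fold lower. Rhd, its partner, was 11.3-fold lower, Car2 28.4-fold and Ank1, the ankyrin that ties the membrane to spectrin, 6.54-fold. Kel, a blood group endopeptidase, also had a GMP mean below background and was at least 13.4-fold lower. Of the genes of late red cell products, the globin gene Hba-a1 and the anion exchanger gene Slc4a1 were low in both groups. Hba-a1 was at 3.17, 3.52, 3.29, 3.25 and 3.30 in GMP replicates 1 to 5, against 3.12, 3.07, 3.10, 3.19 and 2.85 in CMP replicates 1 to 5. Every replicate lay below background, and the difference was not called (0.24 ± 0.10, adjusted p = 0.0598). Hba-a2, a near-identical α-globin gene whose signal the probes may not tell apart, was at 5.83, 5.39, 5.51, 6.43 and 6.21 in GMP replicates 1 to 5, against 5.11, 5.03, 5.08, 5.52 and 5.30 in CMP replicates 1 to 5. It was 0.67 ± 0.19 higher in GMP (limma, adjusted p = 0.0105), with an overlap of the groups and a call lost in 5 of 28 alternatives. Slc4a1, the anion exchanger of mature red cells, was likewise below background in both groups on average (-0.03), and Slc2a1, a glucose transporter, was 2.20 higher in GMP.

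The haem pathway was lower in GMP at most of its steps. Of 22 measured genes of haem synthesis and iron handling, 16 were lower, 12 over 2-fold, and 3 higher, 1 over 2-fold, with a median of -1.09. Along the pathway, Alad differed by -1.74, Uros by -1.08, Urod by -1.38, Cpox by -2.09, Ppox by -0.98 and Fech, which inserts the iron, by -0.80, and all 6 were called. Blvrb, a biliverdin reductase abundant in red cells, was 25-fold lower, and Tfr2, a transferrin receptor tied to Epor, 8.37-fold. The first enzyme exists in 2 forms, and these did not move together. Alas1, the form found in all tissues, was at 9.74, 11.03, 10.41, 10.76 and 10.92 in GMP replicates 1 to 5, against 7.37, 7.61, 7.52, 7.55 and 8.06 in CMP replicates 1 to 5. It was 7.72-fold higher in GMP with no overlap, while Alas2, the erythroid form, was below background in all 10 replicates (-0.10 ± 0.16, adjusted p = 0.62). Tfrc, the main transferrin receptor, had a difference of -0.83 ± 0.41 and was not called, with a GMP SD of 1.16.

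Megakaryocyte and platelet genes were lower in GMP to a smaller extent. Of 27 measured members, 11 were lower, 10 of them over 2-fold, and 2 were higher, neither over 2-fold, with a median of -0.64. Slc14a1, a urea transporter also found on red cells, stood at 4.98, 5.32, 4.81, 4.50 and 4.28 in GMP replicates 1 to 5, against 9.52, 9.48, 9.36, 9.14 and 9.26 in CMP replicates 1 to 5. It was 23.8-fold lower with no overlap, and Vamp5 10.2-fold. Pf4, the chemokine of platelet granules, was at 8.37, 8.34, 8.09, 7.46 and 7.60 in GMP replicates 1 to 5, against 10.59, 9.97, 9.48, 8.95 and 9.82 in CMP replicates 1 to 5. All GMP values lay below all CMP values, and CMP replicate 1 was the highest (-1.79 ± 0.27, adjusted p = 7.62e-05). Vwf, the von Willebrand factor, was -2.05 and Itga2b, the CD41 integrin chain, -1.14 in GMP minus CMP, and Gp5, a platelet glycoprotein with a GMP mean below background, was at least 4.33-fold lower. The mean level of the list was 5.47 to 5.65 in GMP and 6.04 to 6.52 in CMP replicates 2 to 5, but 7.34 in CMP replicate 1. Its median difference was -1.07 over replicates 1 to 3 and -0.17 over replicates 4 and 5.

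**Figure D3:**
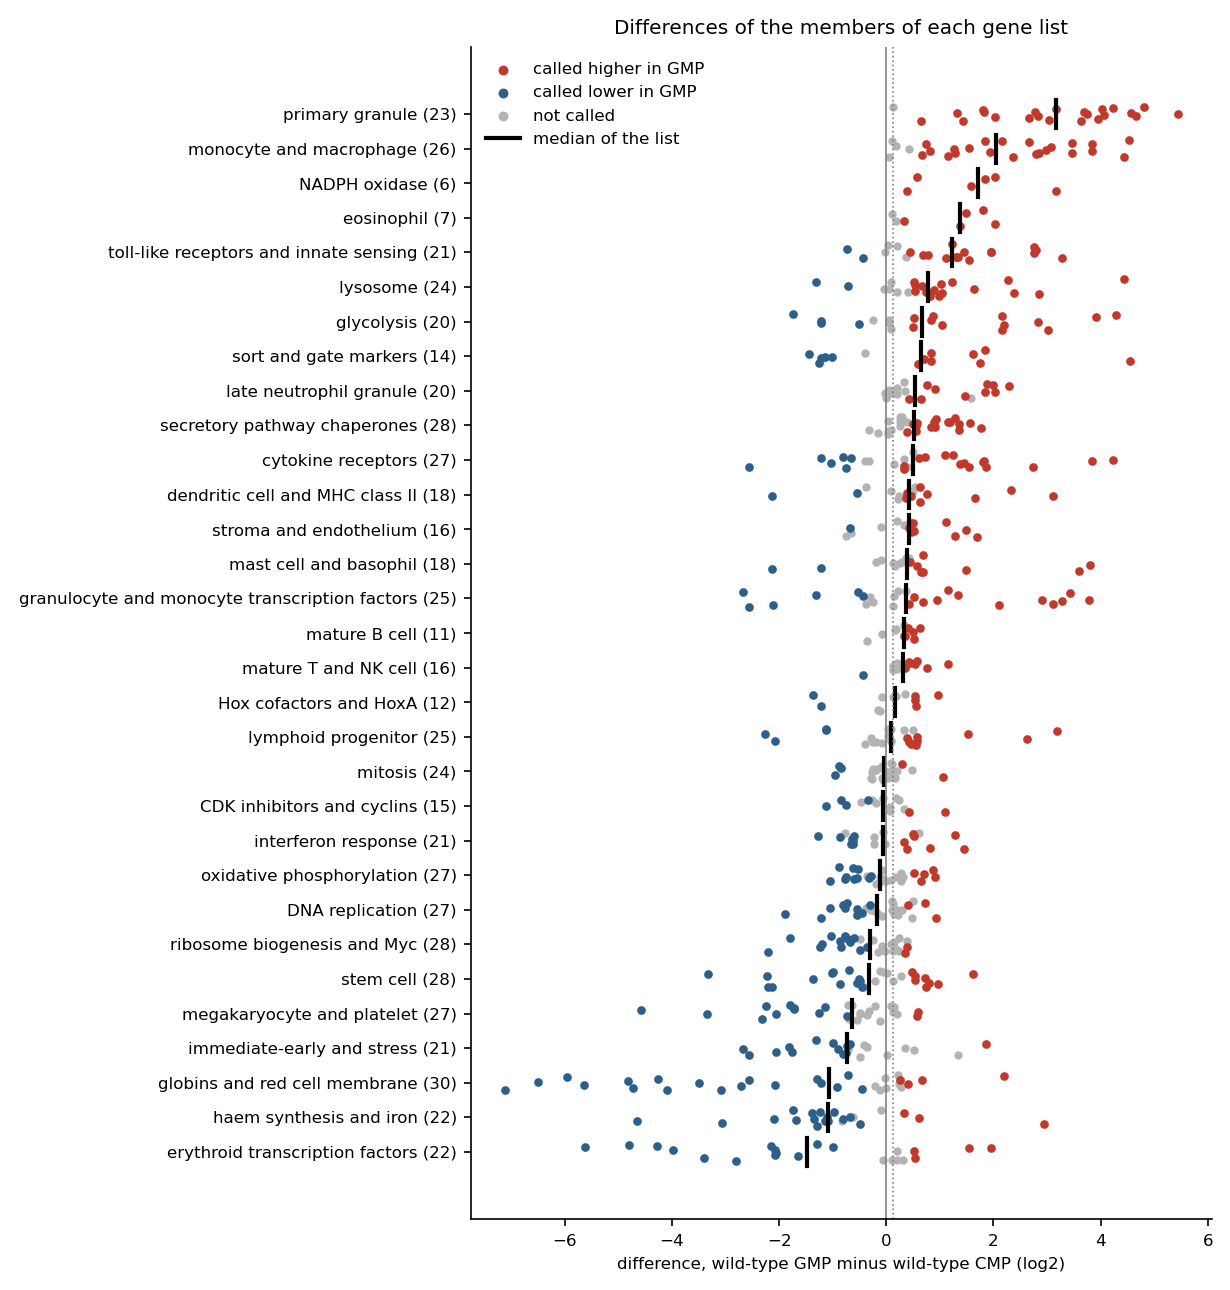
Each row is a gene list (number of measured members in brackets) and each dot a member, placed at its difference, GMP minus CMP, on the log2 scale. Black ticks are list medians and the dotted line the median of all genes (0.13). Primary granule and monocyte genes lie furthest to the right (medians 3.16 and 2.05) and erythroid factors furthest to the left (-1.47).

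Late neutrophil genes, which code for secondary and tertiary granule proteins made after the GMP stage, differed less and varied within both groups. Of 20 measured members, 10 were higher in GMP, 6 over 2-fold, and none lower, with a median of 0.53. Ngp, a neutrophil granule protein, was at 8.68, 8.90, 6.93, 6.03 and 8.22 in GMP replicates 1 to 5, against 5.88, 9.33, 6.34, 6.25 and 9.19 in CMP replicates 1 to 5. CMP replicates 2 and 5 were above every GMP replicate and the groups overlapped. S100a9, a calcium-binding protein abundant in neutrophils, likewise reached 8.74 and 9.15 in CMP replicates 2 and 5, against 5.57 to 6.95 in the other 3. The mean of the list was 5.22 to 5.88 in GMP, and 5.34 and 5.42 in CMP replicates 2 and 5 against 4.04 to 4.51 in the other CMP replicates. Without CMP replicates 2 and 5, 12 members were higher in GMP and the median was 1.03, and the primary granule count stayed at 22 with a median of 3.40.

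**Figure D4:**
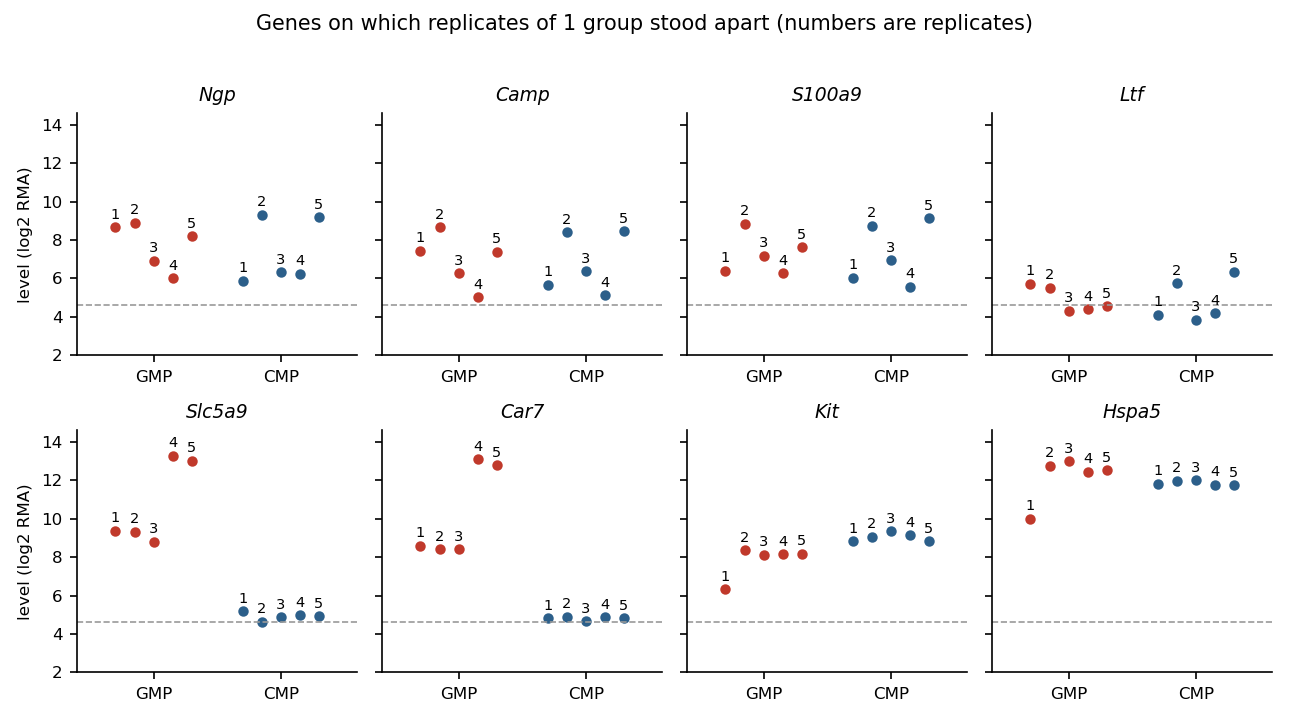
Levels (log2 RMA units) of 8 genes by numbered replicate, GMP left of CMP. Ngp, Camp, S100a9 and Ltf are high in CMP replicates 2 and 5, Slc5a9 and Car7 are near 13 in GMP replicates 4 and 5, and Kit and Hspa5 are low in GMP replicate 1.

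Markers of other cells that a gate could carry over were mixed. Eosinophil genes were higher in 5 of 7 members, 4 over 2-fold (median 1.38), with Epx, the eosinophil peroxidase, at least 1.49-fold higher. Mast cell and basophil genes were higher in 8 and lower in 2 of 18, 3 and 2 over 2-fold (median 0.40). Hdc, which makes histamine, was 14-fold higher and Mcpt8, a basophil protease, 12-fold, and both list medians stayed positive after centring (1.21 and 0.22). Of 11 mature B cell genes, 6 were higher and none over 2-fold. Of 16 T and natural killer cell genes, 7 were higher and 1 lower, 1 and none over 2-fold. After centring on the array median, 2 of the B cell and 4 of the T and natural killer cell genes were higher, and after centring on the genes not expressed in blood 1 and 3. The mean level of these 2 lists stayed below background in every replicate, at 3.84 to 4.30 in GMP and 3.64 to 3.97 in CMP. Of 16 stroma and endothelium genes, 8 were higher and 1 lower, 4 and none over 2-fold. Their list means were 4.55 to 4.81 in GMP and 4.11 to 4.73 in CMP. The highest CMP value was that of replicate 5, in which Col1a1, a collagen of stroma, was at 6.80 against 3.24 to 4.12 in the others. The part of such cells in the results was not tested.

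Dendritic cell and MHC class II genes were higher in 10 and lower in 2 of 18 members, 3 and 1 over 2-fold. Among all genes 29.8% were higher and 16.3% lower, 5.89% and 6.11% over 2-fold. After centring on the array median 6 were higher, and after centring on the genes not expressed in blood 4, with 2 lower in both. H2-Aa, an MHC class II chain, was at 10.06, 8.67, 7.86, 7.82 and 8.07 in GMP replicates 1 to 5, against 5.50, 6.96, 6.13, 5.49 and 6.74 in CMP replicates 1 to 5. The ranges did not overlap, and the difference was 2.33 ± 0.40 (adjusted p = 0.000273). Zbtb46, a factor of classical dendritic cells that is also reported in erythroid progenitors, was -2.14 in GMP minus CMP.

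Stem cell genes were lower in 13 and higher in 8 of 28 members, 6 and 1 over 2-fold, with a median of -0.31. For this list and the HoxA list below, the shares of all genes were 16.3% lower and 29.8% higher, 6.11% and 5.89% over 2-fold. Mllt3, the Af9 gene itself and a factor that maintains stem cells, was at 5.11, 4.50, 5.28, 5.48 and 5.26 in GMP replicates 1 to 5, against 7.24, 7.10, 7.32, 7.60 and 7.48 in CMP replicates 1 to 5. It was 4.66-fold lower in GMP, with no overlap. Mecom, a stem cell factor, was near background in both groups, with means of 4.09 in GMP and 4.30 in CMP, against 8.77 in HSC. Of 12 HoxA genes and cofactors, 4 were higher and 2 lower, none and 2 over 2-fold. Hoxa5 was 0.96 ± 0.17 higher. Meis1, the Hox cofactor, was -1.37 ± 0.23 in GMP minus CMP, although other probe sets of the gene disagreed, and Hoxa9 was not called (adjusted p = 0.667), while another of its probe sets was.

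Lymphoid progenitor genes had no shared direction. Of 25 members, 9 were higher and 4 lower, 3 and 4 over 2-fold, and after centring 5 were higher and 7 lower. The shares of all genes were 29.8% higher and 16.3% lower, 5.89% and 6.11% over 2-fold, and 17.3% and 23.6% after centring. Dntt, which adds bases during antigen receptor assembly, stood at 6.36, 5.51, 6.11, 5.28 and 5.56 in GMP replicates 1 to 5, against 8.33, 8.23, 7.92, 6.91 and 8.71 in CMP replicates 1 to 5. All GMP replicates were below all CMP replicates (-2.26 ± 0.29, adjusted p = 2.17e-05). Ighm, the IgM heavy chain locus that is transcribed early in many progenitors, ran the other way at 11.15, 10.51, 9.98, 10.26 and 10.26 in GMP replicates 1 to 5, against 7.23, 7.87, 6.85, 6.48 and 7.80 in CMP replicates 1 to 5. Its difference was 3.18 ± 0.27 (adjusted p = 2.58e-07; smaller on the other probe sets of the locus, -0.15 to 2.02), and Cd79b, a partner of the B cell receptor with a CMP mean just below background, was at least 5.62-fold higher in GMP.

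Genes of DNA replication and ribosome biogenesis were more often lower than higher in GMP, and most mitosis genes were not called. Of all genes 16.3% were lower and 29.8% higher, 6.11% and 5.89% over 2-fold. Of 27 DNA replication genes, 10 were lower in GMP and 3 higher, 3 and none over 2-fold (median -0.17). Of 24 mitosis genes, 19 were not called, 3 were lower and 2 higher, none and 1 over 2-fold (median -0.04). Mki67, the Ki-67 marker of cycling cells, was at 10.80, 11.05, 10.87, 10.72 and 10.61 in GMP replicates 1 to 5, against 11.70, 11.55, 11.57, 11.80 and 11.68 in CMP replicates 1 to 5. The ranges did not overlap, and the difference was -0.85 ± 0.10 (adjusted p = 9.92e-06). Of 28 ribosome biogenesis and Myc genes, 13 were lower and 2 higher, 5 and none over 2-fold (median -0.31). Myc itself was -0.87 ± 0.17 and the nucleolar protein Nop58 -1.80 ± 0.26 in GMP minus CMP. Counts in these 3 lists leaned further to lower after centring (12, 6 and 14 lower, with 2, 1 and 0 higher). Without GMP replicate 1, the DNA replication median was -0.036, and 5 DNA replication, 5 mitosis and 4 ribosome biogenesis genes were higher, with 11, 4 and 13 lower.

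Immediate-early genes, which respond to stimulation and to cell handling, were lower in GMP. Of 21 measured members, 12 were lower, 6 over 2-fold, and 1 higher, also over 2-fold, with a median of -0.73. Egr1 was at 8.73, 9.54, 8.96, 8.15 and 8.99 in GMP replicates 1 to 5, against 11.77, 11.72, 11.47, 10.98 and 11.25 in CMP replicates 1 to 5. All GMP values lay below all CMP values, and the difference was -2.56 ± 0.22 (adjusted p = 3.09e-07). Ier2 and Nr4a1 differed by -1.82 and -1.76, and Fos by -0.89. HSC means were above those of both populations, at 12.49 for Egr1 and 9.82 for Nr4a1. The part of handling of the cells in this result was not tested.

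Chaperones of the secretory pathway, through which granule proteins pass, were higher in 16 of 28 members, 7 over 2-fold, and lower in none (median 0.53; 13 and 1 after centring). Sdf2l1, a cofactor of the chaperone Hspa5, was 1.77 ± 0.24 higher and Creld2 1.57 ± 0.15. Xbp1, the factor that drives this programme under unfolded protein stress, was at 11.28, 10.90, 10.69, 10.79 and 10.82 in GMP replicates 1 to 5, against 9.15, 9.80, 9.72, 9.38 and 9.62 in CMP replicates 1 to 5. All GMP replicates were above all CMP replicates, by a difference of 1.36 ± 0.15 (adjusted p = 3.73e-06). Hspa5 itself was low in GMP replicate 1 (9.999) and at 12.45 to 13.01 in GMP replicates 2 to 5, against 11.74 to 12.005 in CMP. It was not called with all replicates (0.29 ± 0.41, adjusted p = 0.593). Without GMP replicate 1, 20 members of the list were called higher.

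Lysosomal genes were higher in 17 and lower in 2 of 24 members, 8 and 1 over 2-fold (median 0.77). Hexa, a hexosaminidase, was 5.2-fold higher and Gla, the α-galactosidase, 4.85-fold, while the protease Ctsl was -1.31 in GMP minus CMP. Interferon response genes were higher in 7 and lower in 7 of 21, 2 and 1 over 2-fold, and after centring in 3 and 9. Among all genes 29.8% were higher and 16.3% lower, 5.89% and 6.11% over 2-fold, and 17.3% and 23.6% after centring.

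Of 20 measured glycolysis genes, 12 were higher in GMP and 4 lower, 8 and 3 over 2-fold, with a median of 0.67. Hk3, the hexokinase of phagocytes, stood at 11.69, 10.91, 10.47, 11.25 and 10.92 in GMP replicates 1 to 5, against 6.61, 7.41, 6.50, 6.41 and 6.81 in CMP replicates 1 to 5. It was 19.6-fold higher, with no overlap, while Hk1, the hexokinase used by red cells, was -1.22 ± 0.17, or 2.33-fold lower (adjusted p = 4.56e-05). Pkm, the pyruvate kinase of most white cells, was 3.01 higher, and Pfkm, the muscle-type phosphofructokinase that red cells also use, differed by -1.73. Ldhb, a lactate dehydrogenase subunit, was 3.91 higher. Of 27 oxidative phosphorylation genes, 10 were lower and 5 higher, 1 and none over 2-fold (median -0.12). The divided direction within this list was seen in single genes, with Ndufb8 0.91 ± 0.10 and Ndufa4 -1.05 ± 0.15.

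Outside the lists, the genes lowest in GMP relative to CMP were led by Myh10, a non-muscle myosin heavy chain that was at least 48.4-fold lower, and Tspan8, a tetraspanin, at least 11.5-fold. The aldehyde dehydrogenase genes Aldh1a7 and Aldh1a1 were at least 17.7-fold and 27.3-fold lower. Sphk1, the sphingosine kinase, stood at 5.44, 5.18, 4.78, 4.60 and 5.57 in GMP replicates 1 to 5, against 9.64, 10.03, 10.34, 10.55 and 10.56 in CMP replicates 1 to 5. The ranges were about 4 log2 units apart, although a second probe set of the gene gave a smaller difference of -1.44. Mfsd2b, the transporter that carries its product, sphingosine 1-phosphate, out of red cells and platelets, was at least 20.6-fold lower. Slc38a5, an amino acid transporter, was at least 22.3-fold lower.

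At the other end, Nucb2, a calcium-binding protein, was at least 17.6-fold higher in GMP and Trem3, a receptor of phagocytes, 22.8-fold. Sting1, the sensor of cyclic dinucleotides, was 20.1-fold higher (4.33 on the log2 scale, against 1.51 on a second probe set). Vat1, a vesicle membrane protein, was 19.8-fold higher. Slc5a9, a sugar transporter, and Car7, a carbonic anhydrase, had still larger differences. All GMP replicates were above all CMP replicates, but the size of the differences rested in part on GMP replicates 4 and 5. Slc5a9 was at 9.38, 9.33, 8.80, 13.28 and 13.02 in GMP replicates 1 to 5, against 5.19, 4.65, 4.89, 4.99 and 4.92 in CMP replicates 1 to 5. GMP replicates 4 and 5, the replicates with high Xist, were about 4 log2 units above GMP replicates 1 to 3, and CMP replicates 4 and 5 were not raised. Car7 showed the same pattern, with 13.10 and 12.79 in GMP replicates 4 and 5, 8.40 to 8.59 in the other GMP replicates and 4.66 to 4.91 in CMP. In the 4 Mll-AF9 GMP replicates Xist was high as well (10.83 to 11.27). There Slc5a9 was at 8.48 to 9.49 and Car7 at 7.98 to 8.79, near wild-type GMP replicates 1 to 3. A link to Xist was not tested. Each value came from 1 probe set, and the other probe sets of both genes lay below background in all 10 replicates.

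Set against HSC, which were not part of the comparison, the 1071 genes over 2-fold higher in GMP had HSC means between the 2 populations in 650 cases, below both in 239 and above both in 182. For the 1112 genes over 2-fold lower in GMP the HSC mean was between in 683 cases, below both in 121 and above both in 308. HSC lay nearer to CMP than to GMP for 57.7% of the higher and 58.7% of the lower genes. The shares were similar for CLP, at 55.6% and 58.6%, so this nearness was not particular to HSC. Mpo was 11.51 in HSC, above its CMP mean of 10.86, whereas Klf1 was 7.69 in HSC, between its means of 5.75 in GMP and 11.38 in CMP. Ctss, a cathepsin of antigen-presenting cells, was 9.89 in HSC, above both.

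The same contrast in Mll-AF9 mice (4 GMP and 4 CMP replicates, which share no sample with the wild type) gave closely similar differences. The Mll-AF9 arrays were divided as those of the wild type, with 9 decimals in CMP values and 2 in GMP values. Their medians of genes not expressed in blood were 3.04 to 3.13 in CMP and 3.17 to 3.36 in GMP. The part of this in the likeness of the 2 genotypes was not tested. Of the 1071 genes over 2-fold higher in wild-type GMP, 875 were so in Mll-AF9 GMP (81.7% of the wild-type list and 75.69% of the 1156 of the Mll-AF9 list). Of the 1112 lower, 863 were shared (77.61% of the wild-type list and 81.8% of the 1055 of the Mll-AF9 list), and no gene was over 2-fold in opposite directions. Across the 18193 genes, which are not independent replicates, the differences correlated with r = 0.933. Xist was high in all 8 Mll-AF9 replicates (10.65 to 11.27), but in the wild type only in replicates 4 and 5 of each group. The part of this in differences between the genotypes was not tested. A test of the difference between the contrasts called 12 genes (0.066%; limma, adjusted p below 0.05). The count moved between 0 (335 genes at an unadjusted p below 0.05, with all 8 groups in 1 limma model) and 21 (every run entered) under other settings.

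Hoxa10, a homeobox gene of stem and leukaemia cells, was 3.84 ± 0.09 in wild-type GMP and 3.31 ± 0.22 in wild-type CMP (SD, n = 5 each). In Mll-AF9 it was 4.24 ± 0.22 in GMP and 5.54 ± 0.28 in CMP (SD, n = 4 each). The wild-type difference exceeded the Mll-AF9 difference by 1.83 ± 0.20 (adjusted p = 8.06e-05), and this call was lost in 1 of 27 alternatives (adjusted p = 0.196 with all 8 groups in 1 model), though of the 4 group means that of Mll-AF9 CMP alone lay above background. Tal1 was 7.31 ± 0.13 and 9.39 ± 0.09 in wild-type GMP and CMP, and 6.22 ± 0.33 and 9.45 ± 0.11 in Mll-AF9 GMP and CMP. The wild-type contrast was smaller, by 1.14 ± 0.21 (adjusted p = 0.032). Mpeg1 was 9.40 ± 0.22 and 6.43 ± 0.35 in wild-type GMP and CMP, and 10.37 ± 0.28 and 5.91 ± 0.34 in Mll-AF9 GMP and CMP. Its wild-type contrast was also the smaller, with a difference of contrasts of -1.48 ± 0.27 (adjusted p = 0.0336), and the calls of Tal1 and Mpeg1 were each lost in 15 of 27 alternatives.

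**Figure D5:**
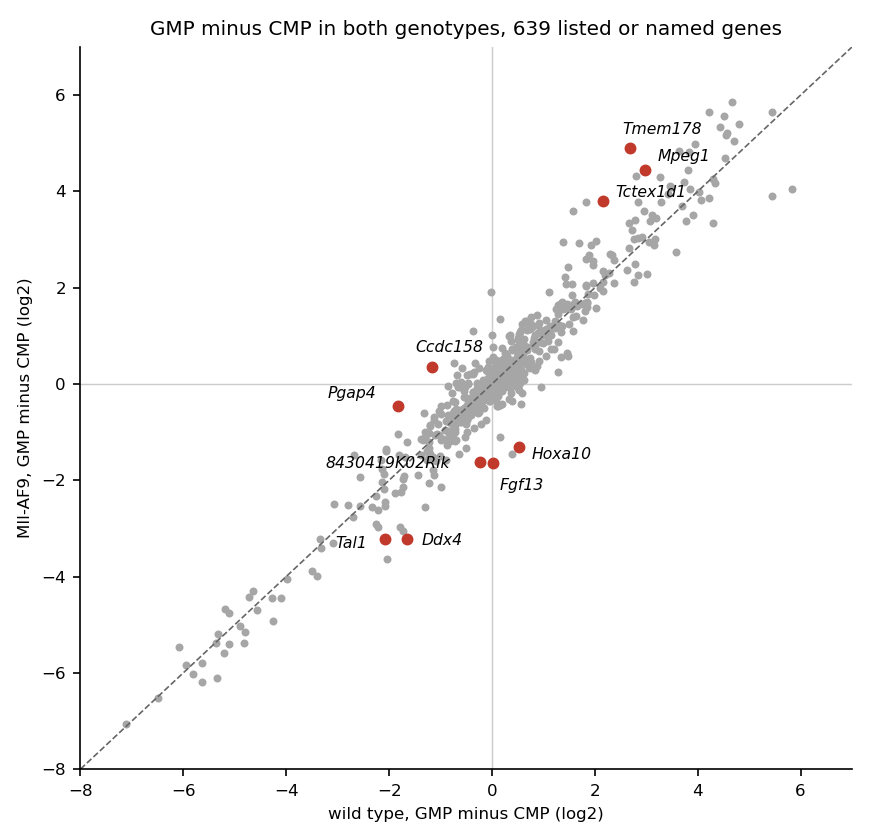
Difference GMP minus CMP (log2) of 639 listed or named genes in wild-type mice (horizontal) and Mll-AF9 mice (vertical), with the line of equal differences. Red dots are the 10 named genes with the largest difference between the contrasts, among them Hoxa10, Tal1 and Mpeg1.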

How the data were processed

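RNA of sorted cells had been amplified and labelled in 2 cycles and hybridised to Affymetrix mouse arrays, per the labels' protocols. The deposited values are RMA intensities on a linear scale, per the labels and the submitters' processing notes. Which arrays entered each RMA run is not given in the sources used here. Values were turned to log2 and runs of 1 replicate averaged. Of 45101 probe sets, 64 controls and 10092 with several genes or no gene (GEO's platform annotation) were left out, and each of 18193 genes was read from its brightest probe set on average over the series. Members with no unambiguous probe set, among them Cebpe and Ly6a, were not analysed here.

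Groups came from the sample titles. GMP and CMP were compared with limma 3.58.1 in R 4.3.3 (lmFit, eBayes with an intensity trend), with Benjamini-Hochberg adjustment over all genes and calls at an adjusted p below 0.05. Genotypes were compared by an interaction in a model of 4 groups, array measures by exact permutation tests. Where a group mean lay below background (log2 4.62, the 95th percentile of 114 genes not expressed in blood), each of its arrays below background was set to background before averaging and the fold given as a lower bound. The number of arrays limits the precision. The tests were checked on simulated data. Both groups share replicate numbers, but deviations correlated at 0.04 for number 1 and 0.13 to 0.20 for the others, so samples were not treated as paired.

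Gene lists, members and tests were chosen with earlier results of these data known. Named genes lead a list or the comparison by size of difference, or are lineage landmarks. Lmo2, Ldb1, Cbfa2t3, Rnase2b, Rhd, Kel, Ank1, Slc4a1, Uros, Urod, Ppox, Fech, Tfrc, Fos, Hspa5, Ngp, Camp, Ltf, S100a9 and Col1a1 were named after their values were seen. Alternatives changed the normalisation, centring, filter, probe-set rule, runs, model and samples.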

Additional observations from a re-analysis of the deposited data

Results flagged for a closer look

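In 15 of 302 groups of 5 replicates (151 genes named here, 2 groups each), 1 replicate lay so far from the other 4 that the gap took up most of the range (Dixon's ratio above its 95% critical value for 5). Chance alone gives about 1 in 20 such groups where genes are chosen blind to their values. Among the flagged genes, Hspa5, Col1a1, Urod and Slc4a1 were named after their values were seen, so the count cannot be weighed against that share. In GMP, 9 of the 10 belonged to replicate 1. It was low for Kit (ratio 0.883; 6.33 against 8.14 to 8.38), Trem3 (0.838), Sting1 (0.829), Hspa5 (0.813; 9.999 against 12.45 to 13.01), Elane (0.779; 9.31 against 11.13 to 11.65) and Prtn3 (0.769; 12.25 against 12.77 to 12.93). It was high for Ctsh (0.79; 9.75 against 8.55 to 8.80), Urod (0.754; 10.24 against 8.81 to 9.16) and Slc4a1 (0.713; 4.38 against 2.95 to 3.36, all below background). The remaining ratio in GMP was that of Clec5a, high in replicate 3 (0.765; 6.48 against 5.70 to 5.88). Replicate 1 also had the largest 3′ minus 5′ control difference (4.70), and the part of this in its levels was not tested.

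In CMP, all 5 belonged to replicate 5, which was the highest for Slc4a1 (ratio 0.878; 4.27 against 3.09 to 3.23), Gla (0.829; 5.76 against 5.25 to 5.34), Col1a1 (0.754; 6.80 against 3.24 to 4.12), Epor (0.736; 8.19 against 7.76 to 7.87) and Cyba (0.728; 8.02 against 7.78 to 7.84). All CMP levels of Slc4a1 were below the background of 4.62. CMP replicate 5 was read from 1 array, while CMP replicates 1 to 4 were each a mean of 2 arrays. The part of this in the 5 flags was not tested.

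Of the 12 genes whose difference between GMP and CMP itself differed between genotypes (limma, tested as an interaction), 10 are named, the 5 with the largest difference in each direction. The wild-type difference minus the Mll-AF9 difference was 1.83 for Hoxa10, 1.66 for Fgf13, 1.55 for Ddx4, 1.38 for 8430419K02Rik and 1.14 for Tal1. It was -2.20 for Tmem178, -1.65 for Tctex1d1, -1.51 for Ccdc158, -1.48 for Mpeg1 and -1.35 for Pgap4. Calls were lost in 20 of 27 alternatives for Pgap4, 18 of 26 for Ccdc158, 13 for Ddx4, 10 for Tctex1d1, 6 for Tmem178, 4 for 8430419K02Rik and 2 for Fgf13. In the wild type, Fgf13, Ddx4, 8430419K02Rik and Ccdc158 had means below background in both populations.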

How the results depend on the processing

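Left-out replicates, 1 at a time, gave 4595 to 5730 genes higher and 2633 to 3264 lower in GMP, and 1039 to 1125 and 1044 to 1196 over 2-fold. After centring on the array median, 3156 genes were higher. Centring on the genes not expressed in blood gave 2521 higher and 5267 lower, and 702 over 2-fold higher. These shift every gene by 1 constant per array. With every probe set tested, 1865 genes had at least 1 probe set called over 2-fold lower and 1272 at least 1 called over 2-fold higher. With replicates 1 to 3 alone, 2625 were higher and 1716 lower, over fewer samples. Without CMP replicates 2 and 5, 3694 were higher and 2307 lower. This setting, those with replicates 1 to 3 or 4 and 5 alone, that without GMP replicates 1 and 2 and the centring on genes not expressed in blood were chosen after seeing the data. With the replicate block, 5396 genes were higher and 2989 lower, and each GMP replicate's deviations correlated best with those of the CMP replicate of its own number, a hint from the data and not from the design. The block changed no count by more than 1.5 times.

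The 12 genes whose contrast differed between genotypes became 7 and 1 with the first and the second run alone, 21 with every run as a random effect, 0 with all 8 groups in 1 limma model (335 at an unadjusted p below 0.05), 6 without the intensity trend, 17 with the replicate block and 4 to 15 with 1 replicate left out. They fell to 7 without wild-type GMP replicate 4, 5, 4 and 6 without wild-type CMP replicates 1, 2 and 3, 4 and 5 without Mll-AF9 GMP replicates 1 and 4, and 5 and 4 without Mll-AF9 CMP replicates 2 and 4. The cause was not tested.

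Of 228 called genes among the 237 chosen by rule, 157 kept their call in all alternatives, 70 lost it in at least 1 and Sox4 only reversed. Averaging the probe sets of a gene gave -0.19 for Cad, 0.025 for Ets2, 0.25 for Hoxa9, -0.042 for Ndn, -0.077 for Nme1, 0.0015 for Sox4 and -0.52 for Xist. Replicates 4 and 5 alone gave 0.18 for Alas2, -0.030 for Cdc45, -0.29 for Fgf13, 0.18 for Hoxa9 and 0.072 for Mecom. Alas2 was 0.11 with the first run alone and -0.22 to 0.035 without single replicates. Fgf13 was -0.056 after quantile normalisation, -0.16 after centring on the median, -0.040 with the second run alone, -0.024 with the 3′ minus 5′ covariate, -0.088 without GMP replicates 1 and 2, and -0.033 to 0.12 without single replicates. Centring on genes not expressed in blood gave -0.23 for Fgf13, -0.0069 for Hba-a1 and -0.057 for Xist. Hoxa9 was -0.24 to 0.092 without single replicates and 0.080 without GMP replicates 1 and 2. Xist was -0.59 with the Y-linked covariate and -0.82 to 1.23 without single replicates. In dim genes, signal near background limits what can be measured.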
